A study of Homo sapiens with 82 samples.

Results

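Of the 11784 genomic sites that FLAG-tagged LXRA occupied in HT29 cells after both 2 h and 48 h of GW3965, 1508 (12.8%) carried no peak of LXRB or PPARG in any library. These LXRA-alone sites made up 8.20% of the 18389 LXRA sites found at 2 h. Their number depends on the rule. When 1 LXRA library was left out, every peak of the other replicate counted as a site, so a peak in both replicates was no longer needed. The set then held from 1589 to 2641 sites, with 2325 without replicate 2 at 2 h and 2641 without replicate 1 at 48 h. It held 3415 when only LXRB or PPARG sites found in both replicates excluded a site. Peaks of the 2 replicates that shared at least 1 bp were joined into a site. The set was chosen by peak overlap, so that a 2 h site entered it when it touched any of the 17326 LXRA sites found at 48 h and no peak of the 4 LXRB and 4 PPARG libraries. The remaining sites held at both times served for comparison. They comprised 1258 with an LXRB peak and no PPARG peak (LXRA/LXRB sites), 1353 with a PPARG peak and no LXRB peak (LXRA/PPARG sites) and 7665 with both (shared sites).

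HT29 is a colorectal adenocarcinoma line, and the study followed how agonists of LXR and PPARG change binding, chromatin and transcription in it. LXRA and LXRB were mapped by ChIP-seq after 2 and 48 h of 10 μM GW3965, an LXR agonist, and PPARG after 2 and 48 h of 10 μM rosiglitazone, a PPARG agonist. JunD was mapped in cells given the carrier DMSO. The acetylated histone mark H3K27ac and RNA polymerase II (RNAP2) were mapped with DMSO and with 10 μM of either agonist for 24 h or 48 h, with 2 replicates in every group. The DMSO libraries of ChIP-seq carry no hour in their labels, which also do not say whether replicates came from separate cultures, so p-values measure the spread between these libraries, which may be technical.

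LXRA (NR1H3) and LXRB (NR1H2) are nuclear receptors that bind oxysterols, pair with RXR on DNA and switch on genes of sterol export and fatty acid synthesis. They swap corepressors for coactivators when an agonist binds. PPARG also pairs with RXR and governs lipid storage and differentiation, and JunD is a subunit of the AP1 transcription factor. H3K27ac marks active promoters and enhancers, and RNAP2 is found at promoters, along transcribed genes and at active enhancers.

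The design limits what absence of a peak can show. LXRA was expressed from a transfected, FLAG-tagged transgene in cells selected with G418 and was pulled down with an anti-FLAG antibody, whereas LXRB and PPARG were pulled down with antibodies to the proteins themselves, and no transgene is labelled for the other libraries. No LXRA library without agonist was used. PPARG was mapped with its own agonist and not with GW3965. The LXRA libraries held from 18436 to 30953 peaks, the LXRB libraries from 4555 to 14788 and the PPARG libraries from 8933 to 24039. Sequencing depth of the ChIP-seq libraries is unknown here, so a site without a peak is one at which no peak was called, not one shown to be unbound. In the 8 RNA-seq libraries given DMSO, with 30834003 to 39955727 counts each, the intestinal markers EPCAM, KRT20, VIL1 and LGALS4 had medians of 333, 293, 167 and 761 counts per 1000000 counts (CPM), and CDX2, CDH17 and CDX1 had 13.2, 9.10 and 2.61. Among markers of other cell types, PTPRC had a median of 0 CPM, VIM of 0.0560 and COL1A1 of 5.07, while PECAM1 was not matched to a single row. Transcripts of NR1H3 lay between 70.8 and 84.4 CPM, of NR1H2 between 46.0 and 68.8, of PPARG between 42.6 and 86.5 and of JUND between 101 and 292. These ranges pool libraries of 24 h and 48 h. At 24 h NR1H2 ran from 46.0 to 50.1, PPARG from 42.6 to 49.4 and JUND from 101 to 117. At 48 h they ran from 62.7 to 68.8, from 78.7 to 86.5 and from 250 to 292.

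The LXRA peaks themselves, which chose the sites, are described without a test. Each deposited peak has a MACS score, minus 10 times the log10 of its p, with a lowest value of 100. At the LXRA-alone sites the median score was 337 and 199 in the 2 h replicates and 186 and 302 in the 48 h replicates. At shared sites the 2 h replicates had medians of 656 and 346, the 48 h replicates of 352 and 595. LXRA/PPARG sites, with 346, 186, 184 and 298 in the same order, lay close to the LXRA-alone sites, and LXRA/LXRB sites lay between them and the shared sites with 421, 237, 235 and 381. Within a library, ranks of score are comparable across these differences in scale. The median LXRA-alone site stood at percentile 63.5 and 47.1 among all peaks of the 2 h libraries and at 44.6 and 63.1 in the 48 h libraries. All sites held at both times, which by definition have peaks in these lists, had medians of 77.3, 64.1, 64.7 and 78.0. Few scores sat at the floor. Those under 110 made up 1.26% and 6.70% of sites at 2 h and 8.49% and 2.06% at 48 h, and the highest score was 3100 in every LXRA library other than replicate 1 at 48 h, where it was 1973. A total of 12 LXRA-alone sites had no replicate 1 peak on the 2 h span itself at 48 h, because the 48 h site reached beyond it.

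**Figure D1:**
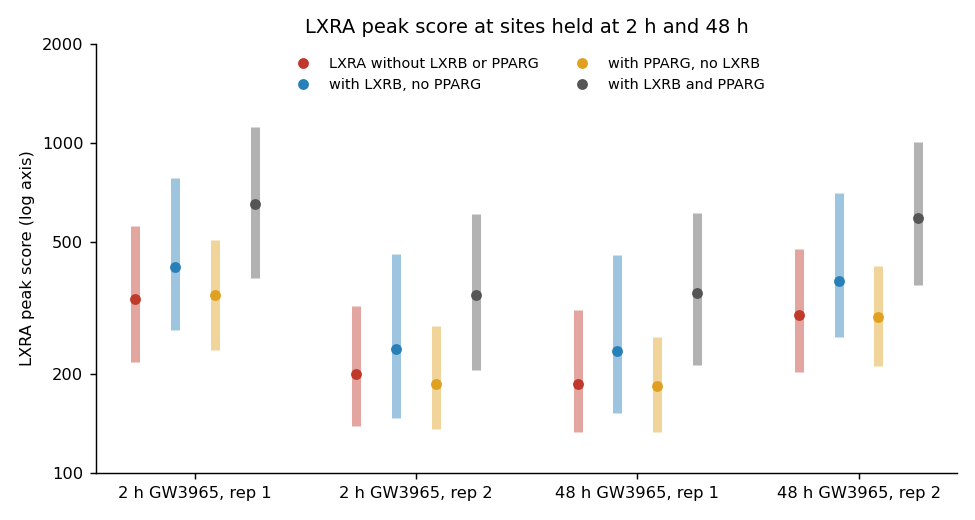
LXRA peak score (log axis) in each of the 4 LXRA libraries for sites held at 2 h and 48 h, by class. Dots are medians over sites and bars span the 25th to the 75th percentile. In all 4 libraries the LXRA-alone sites have a lower median than the LXRA/LXRB and shared sites and lie near the LXRA/PPARG sites.

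When the 11784 sites were divided into 4 equal groups by mean percentile, 721 LXRA-alone sites (47.8%) fell in the lowest group and 118 (7.82%) in the highest, compared with 14.1% and 32.8% of shared sites. LXRA/PPARG sites were still lower in rank, with 51.4% and 4.14% in these groups, and LXRA/LXRB sites had 35.4% and 20.3%. Replicates ranked the LXRA-alone sites in much the same order, with a Spearman correlation over sites of 0.763 at 2 h and 0.723 at 48 h. The mean percentiles of 2 h and 48 h were less alike (0.391, against 0.593 at shared sites, 0.594 at LXRA/LXRB sites and 0.248 at LXRA/PPARG sites). These correlations describe sites that share libraries. The median change in percentile from 2 h to 48 h was -0.825, and it was between -1.50 and 0.527 in the other classes. Ranks within a library say nothing of a change in binding common to all sites. Of the 1496 sites with a peak in all 4 libraries, 387 ranked higher in both 48 h libraries than in either 2 h library and 401 ranked lower.

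The LXRA-alone sites were also narrow. Their median width was 856 bp at 2 h, with the middle 50% between 742 and 1042 bp, and 924.5 bp at 48 h. The medians at 2 h were 887 bp for LXRA/PPARG sites, 1089 bp for LXRA/LXRB sites and 1114 bp for shared sites. Sites wider than 2000 bp made up 1.19% of the LXRA-alone set and 9.52% of the shared set. The median distance to the nearest LXRB or PPARG peak was 14863.5 bp, 119 sites (7.89%) had such a peak within 1000 bp, and 1359 (90.1%) had one within 100000 bp. Neighbouring LXRA-alone sites were seldom close, with 3.57% of the gaps between them under 10000 bp, compared with 19.5% at shared sites, 3.56% at LXRA/LXRB sites and 3.76% at LXRA/PPARG sites. The shared sites are also the most numerous.

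At the edge of the definition, 5 LXRA-alone sites lay within 50 bp of an LXRB or PPARG peak, and 5 excluded sites overlapped one by at most 50 bp. The nearest site kept was chr17:33915270-33916174 (build hg19, as for all coordinates here), 14 bp from such a peak, with LXRA scores of 225 and 230 at 2 h and 320 and 1088 at 48 h. Sites chr2:165696397-165697589 and chr22:21983301-21984064 were 24 and 35 bp away. Among the sites left out, chr20:19866371-19867850 overlapped a peak by 3 bp and had scores of 175 and 155 at 2 h and 349 and 755 at 48 h. Sites chr6:52474632-52475411 and chr13:81956344-81957361 overlapped by 23 and 24 bp. Of these 6 sites, 5 carried H3K27ac in at least 9 of 10 libraries and chr13:81956344-81957361 in 7.

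JunD was seldom found at the LXRA-alone sites. A JunD peak overlapped 117 of 1508 sites in replicate 1 (7.76%, Wilson 95% interval 6.51 to 9.22) and 153 in replicate 2 (10.1%, 8.72 to 11.8). These intervals, like all others here, cover counting error only. The same libraries had a JunD peak at 20.7% and 21.5% of LXRA/LXRB sites, 25.4% and 31.5% of LXRA/PPARG sites and 60.1% and 65.2% of shared sites. The mean share of LXRA-alone sites was thus lower by 12.2, 19.5 and 53.7 percentage points, and both libraries lay below both libraries of each other class. With 2 libraries no test was made. A peak in both JunD libraries was present at 91 LXRA-alone sites, in 1 of them at 88 and in neither at 1329 (88.1%). JunD peaks with a score of at least 200 were present at 2.85%.

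The share with JunD was highest among the LXRA-alone sites with the lowest LXRA scores. From the lowest to the highest of the 4 score groups, JunD was present at a mean of 11.2%, 8.02%, 5.44% and 5.51% of LXRA-alone sites. At shared sites the means were 46.4%, 56.9%, 62.9% and 73.4%. The LXRA/LXRB sites went from 26.2% to 12.2%. In every score group the LXRA-alone sites had the lowest mean share, and the gap to shared sites ran from 35.2 points in the lowest group to 67.9 in the highest.

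**Figure D2:**
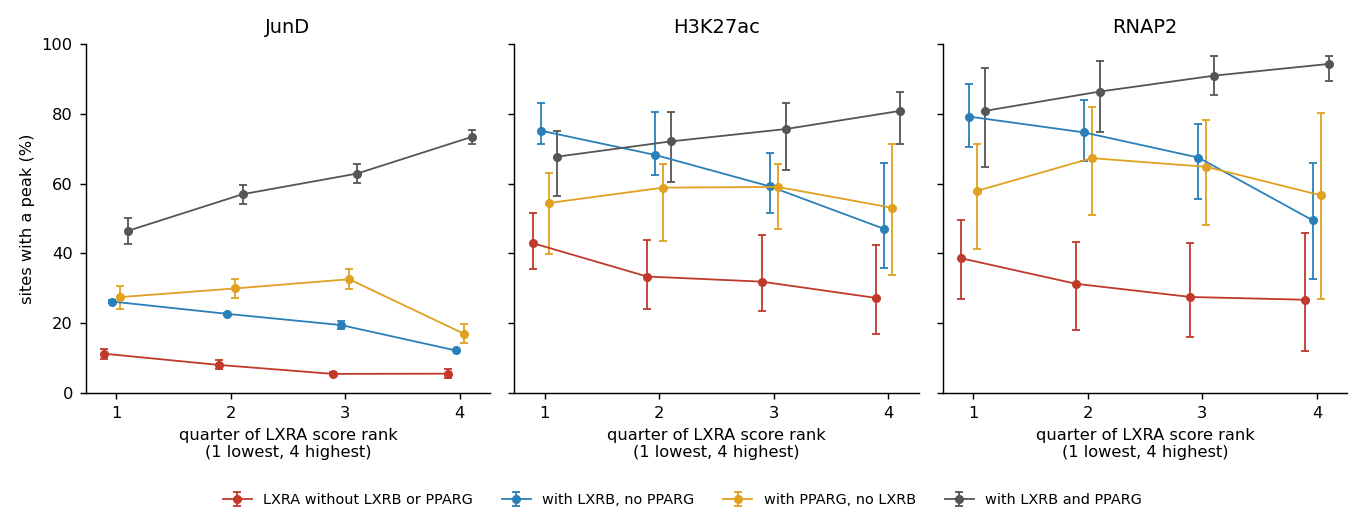
Share of sites (%) with a JunD, H3K27ac or RNAP2 peak, by class, in 4 equal groups of all sites ordered by mean LXRA score percentile. Dots are means over libraries (2 for JunD, 10 each for H3K27ac and RNAP2) and bars run from the lowest to the highest library. The LXRA-alone sites have the lowest mean in every group and panel, with JunD going from 11.2% to 5.51% while shared sites go from 46.4% to 73.4%.

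H3K27ac covered a minority of the LXRA-alone sites in every library. With DMSO, 29.0% and 35.7% of sites had a peak. With GW3965 the shares were 35.1% and 43.4% at 24 h and 47.5% and 44.1% at 48 h. With rosiglitazone they were 32.7% and 36.7% at 24 h and 36.8% and 31.2% at 48 h. The libraries of GW3965 at 48 h were the highest of the 10, and both stood above both DMSO libraries, while the ranges of the other 3 treated groups overlapped that of DMSO. Peaks covered from 49.4 to 75.5 Mb per H3K27ac library, and the DMSO library with 29.0% had the least. In these bulk libraries a site marked in fewer cells and a site marked less in each cell cannot be told apart.

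Against DMSO, the mean share was higher by 13.5 points with GW3965 at 48 h, from 32.4% ± 4.69 to 45.8% ± 2.44 (SD, n = 2), with an exact permutation p of 0.333, the smallest that 2 libraries against 2 allow (adjusted p = 0.667 over 10 tests). The difference was 6.86 points with GW3965 at 24 h, 2.32 with rosiglitazone at 24 h and 1.66 with rosiglitazone at 48 h, each with an exact permutation p of 0.667. With 1 library left out these ran from 2.72 to 11.01 points (lowest without replicate 2 and highest without replicate 1 of GW3965 at 24 h), from -0.995 to 5.64 and from -1.66 to 4.97, the last 2 lowest without DMSO replicate 1 and highest without DMSO replicate 2. The 4 GW3965 libraries had a mean of 42.5% ± 5.29 and the 4 rosiglitazone libraries of 34.4% ± 2.82 (SD, n = 4). That difference of 8.17 points did not pass the test (exact permutation p = 0.0857, adjusted p = 0.667). With the highest scoring peaks of each library taken up to the same covered length, the difference from DMSO at 48 h of GW3965 dropped from 13.5 to 3.48 points and that at 24 h from 6.86 to 0.232, and those of rosiglitazone became -6.50 points at 24 h and -3.91 at 48 h. The agonists then differed by 7.06 points (exact permutation p = 0.0286, unadjusted).

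RNAP2 peaks were present at 39.8% and 42.8% of LXRA-alone sites with DMSO. The shares were 44.5% and 24.1% after 24 h of GW3965, 29.4% and 30.6% after 48 h of GW3965, 30.6% and 38.7% after 24 h of rosiglitazone and 22.7% and 35.1% after 48 h of rosiglitazone. Both libraries of GW3965 at 48 h and of rosiglitazone at either time lay below both DMSO libraries. The replicates of GW3965 at 24 h lay on either side of DMSO, and replicate 2 was also the lower in each of the other classes. Mean differences from DMSO were -11.3 points with GW3965 at 48 h, -6.66 and -12.4 with rosiglitazone at 24 h and 48 h, and -7.00 with GW3965 at 24 h. The first 3 had an exact permutation p of 0.333, the smallest possible, and the last a p of 1. The 4 GW3965 libraries had a mean of 32.1% ± 8.71 and the 4 rosiglitazone libraries of 31.7% ± 6.89 (SD, n = 4). The agonists thus differed by 0.398 points (exact permutation p = 0.914). Covered length was 48.7 and 48.8 Mb in the DMSO libraries, 36.9 to 42.2 Mb with GW3965 and 44.4 to 67.0 Mb with rosiglitazone. With 1 library left out, the differences of rosiglitazone ran from -10.7 to -2.62 points at 24 h (without its replicate 2 or 1) and from -18.6 to -6.20 at 48 h (likewise), and that of GW3965 at 24 h was -17.2 without its replicate 1 and 3.22 without its replicate 2. At equal covered length the differences from DMSO became 8.26 points with GW3965 at 24 h and 7.13 at 48 h, so no direction is given for GW3965, while those of rosiglitazone stayed negative at -7.23 and -4.21 points. The part that the amount called in each library had in these differences was not tested further.

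**Figure D3:**
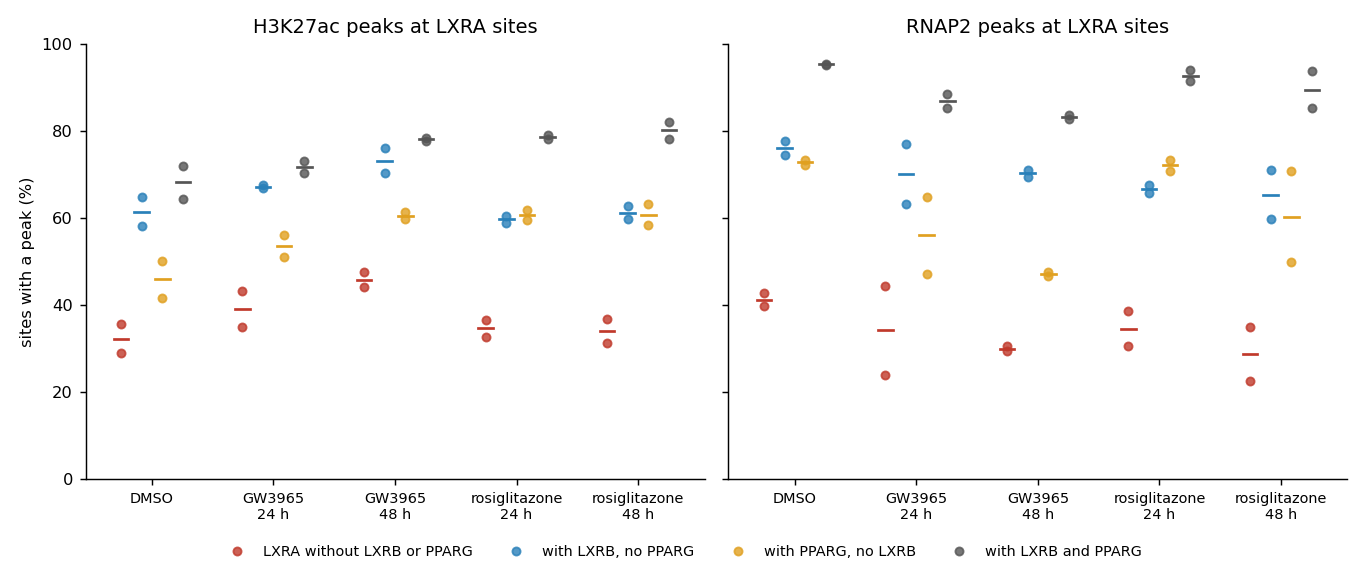
Share of sites (%) with an H3K27ac (left) or RNAP2 (right) peak in each library, by treatment and class. Each dot is 1 of 2 replicate libraries and each short line their mean. The LXRA-alone sites lie below the other 3 classes in every one of the 10 libraries of each mark, from 29.0% to 47.5% for H3K27ac and from 22.7% to 44.5% for RNAP2.

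Fewer LXRA-alone sites than other LXRA sites carried either mark, and this held in every library. Over the 10 H3K27ac libraries the mean share was 37.2%, compared with 64.6% at LXRA/LXRB sites, 56.3% at LXRA/PPARG sites and 75.4% at shared sites. The differences within a library were -27.4 ± 2.74, -19.1 ± 6.49 and -38.2 ± 6.82 points (SD, n = 10). For RNAP2 the mean was 33.8%, compared with 69.7%, 61.7% and 89.5%, and the differences were -35.9 ± 3.53, -27.9 ± 8.20 and -55.7 ± 5.90 points. Each of the 6 differences had the same sign in 10 of 10 libraries and an exact sign permutation p of 0.00195, also 0.00195 after adjustment over the 6 tests, which is the smallest that 10 libraries allow. The same sites enter every library, so this p speaks for the spread between libraries and not between sites.

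The differences held in each of the 4 LXRA score groups, with an exact sign permutation p of 0.00195 in every one. Within the 4 score groups the H3K27ac differences ran from -19.8 to -34.9 points against LXRA/LXRB sites, from -11.5 to -27.1 against LXRA/PPARG sites and from -24.7 to -53.6 against shared sites. The LXRA/PPARG sites are the closest match in LXRA score, and among the strongest bound of them H3K27ac was present at a mean of 53.0%, compared with 27.2% of the 118 LXRA-alone sites in the same score group. With a fixed window of 250 bp either side of each centre, which gives every site the same width, the H3K27ac differences were -27.4, -19.0 and -38.0 points. Wider LXRA-alone sites had the marks more often. H3K27ac was present at 20.9% of the narrower 754 sites and 53.5% of the wider 754, and RNAP2 at 24.2% and 43.5%. JunD differed little between them, at 8.62% and 9.28%.

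Counted over libraries, 612 LXRA-alone sites (40.6%) had no H3K27ac peak in any of the 10 libraries and 279 (18.5%) had one in all 10. Among the other LXRA sites these shares were 10.8% and 46.9%. For RNAP2, 526 LXRA-alone sites (34.9%) had a peak in no library and 154 (10.2%) in all 10, compared with 2.17% and 56.5% of the other sites. Considering JunD, H3K27ac and RNAP2 together, 363 LXRA-alone sites (24.1%) had no peak of any kind in any library. That was the case for 4.61% of LXRA/LXRB sites, 3.40% of LXRA/PPARG sites and 0.117% of shared sites, or 9 of 7665. At the other end, 23 LXRA-alone sites (1.53%) had JunD in both libraries and H3K27ac and RNAP2 in all 10 each, compared with 26.6% of shared sites.

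**Figure D4:**
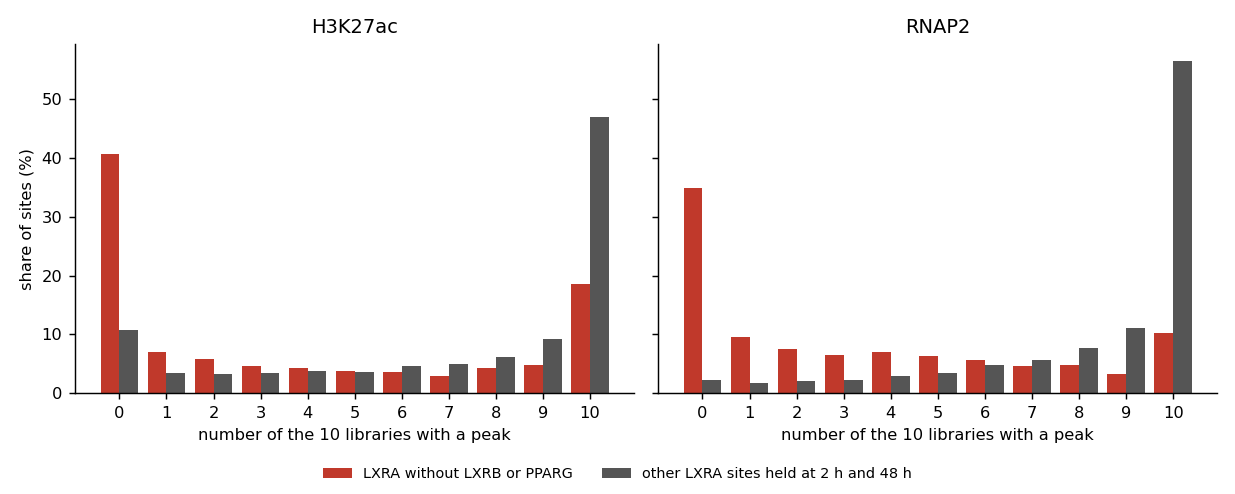
Share of sites (%) by the number of H3K27ac (left) or RNAP2 (right) libraries, of 10, that have a peak on the site, for the LXRA-alone sites and for all other LXRA sites held at 2 h and 48 h. The LXRA-alone sites peak at 0 libraries (40.6% and 34.9%) and the others at 10 libraries (46.9% and 56.5%).

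H3K27ac peaks present in every library ranked above the middle of their peak lists, which the choice of sites with a peak in all 10 libraries favours. At the 279 LXRA-alone sites with H3K27ac in all 10 libraries, the median peak stood at percentile 62.6 and 71.2 among all H3K27ac peaks with DMSO, 71.4 and 73.7 with GW3965 at 24 h and 80.5 and 75.2 with GW3965 at 48 h. With rosiglitazone the medians were 61.6 and 66.9 at 24 h and 68.3 and 63.6 at 48 h. Sites of the other classes chosen in the same way had DMSO medians of 77.8 and 82.2 (LXRA/LXRB), 64.2 and 66.7 (LXRA/PPARG) and 71.8 and 74.7 (shared). The lists ranked held from 23015 to 31824 peaks, and a percentile also depends on how many weak peaks a list holds, so no order by treatment is read from these values. The 154 LXRA-alone sites with RNAP2 in all libraries, chosen likewise, had medians between percentile 68.5 and 78.0.

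Those few LXRA-alone sites that had JunD also had the other marks more often. Over the H3K27ac libraries a peak was present at a mean of 51.0% of the 91 sites with JunD in both libraries and at 35.9% of the 1329 with JunD in neither, a difference of 15.1 ± 10.1 points (SD, n = 10) that was positive in 9 of 10 libraries (exact sign permutation p = 0.00391). For RNAP2 the means were 70.0% and 30.02%, with a difference of 40.0 ± 14.3 points in 10 of 10 libraries (exact p = 0.00195). This split was chosen after the data had been seen. At the 91 sites RNAP2 was present at 82.4% and 81.3% with DMSO, 71.4% and 58.2% with GW3965 at 24 h and 47.3% in both libraries at 48 h. In the rosiglitazone libraries it was 79.1% and 92.3% for 24 h, then 58.2% and 82.4% for 48 h. H3K27ac at these sites ran from 39.6% to 53.8% in the 4 GW3965 libraries and from 52.7% to 64.8% in the 4 rosiglitazone libraries, with 42.9% and 44.0% for DMSO. At the 1329 sites it ran from 34.6% to 47.6% with GW3965 and from 29.3% to 34.5% with rosiglitazone, with 28.1% and 35.0% for DMSO. RNAP2 at the 1329 sites was at 35.0% and 38.8% with DMSO. It was at 42.2% and 20.7% with GW3965 at 24 h, 27.8% and 29.3% at 48 h, and from 19.2% to 32.5% with rosiglitazone.

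The gap between LXRA-alone and LXRA/PPARG sites was wider with rosiglitazone than with GW3965 for both marks, but no contrast passed the test after adjustment. The contrast takes the difference in share between LXRA-alone sites and another class within each library and compares the 4 GW3965 with the 4 rosiglitazone libraries, and it was added after the data had been seen. For H3K27ac the difference from LXRA/PPARG sites was -13.6 points with DMSO (mean of 2 libraries), -14.6 ± 2.49 with GW3965 and -26.4 ± 0.900 with rosiglitazone (SD, n = 4). The agonists thus differed by 11.9 points without overlap, with an exact permutation p of 0.0286, the smallest for 4 against 4, and an adjusted p of 0.0571 over 6 tests. Against shared sites they differed by 12.7 points with the same p and adjusted p, from -32.4 ± 4.75 to -45.1 ± 2.41. Against LXRA/LXRB sites they differed by -1.54 points (exact p = 0.571), from -27.7 ± 3.86 with GW3965 to -26.2 ± 1.86 with rosiglitazone. For RNAP2 the difference from LXRA/PPARG sites was -31.6 points with DMSO, -19.4 ± 2.97 with GW3965 and -34.5 ± 5.43 with rosiglitazone, a contrast of 15.1 points (exact p = 0.0286, adjusted p = 0.0571). Against shared sites the RNAP2 contrast was 6.47 points with overlapping libraries (exact p = 0.171, adjusted p = 0.24), and against LXRA/LXRB sites it was -3.76 (exact p = 0.2, adjusted p = 0.24). The RNAP2 contrast came with the values of the LXRA/PPARG class, whose mean share was 72.8% with DMSO, 51.6% with GW3965 and 66.3% with rosiglitazone. It was 4.91 points at equal covered length (exact p = 0.257) and -0.802 points within the highest score group. The LXRA/PPARG and shared classes were themselves set by PPARG peaks from cells given rosiglitazone.

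Individual sites were called gained when both treated libraries and neither DMSO library had a peak, and lost in the reverse case. With GW3965 at 48 h, 113 LXRA-alone sites gained H3K27ac (7.49%), near the background of 6.44% over all 11784 sites, and 5 lost it (0.332%, background 0.297%). At 24 h of GW3965, 27 gained it (1.79%, background 2.36%) and 5 lost it (0.332%, background 0.501%). With rosiglitazone 52 gained it at 24 h (3.45%, background 6.79%) and 45 at 48 h (2.98%, background 6.65%), while 27 (1.79%, background 1.48%) and 26 (1.72%, background 1.08%) lost it. As shares of all sites, gains with rosiglitazone were below the background at both times, and those with GW3965 were close to it. Only a site without a peak in either DMSO library can gain one. DMSO peaks of H3K27ac were at 29.0% and 35.7% of LXRA-alone sites and at 56.7% and 64.1% of all 11784. More of the LXRA-alone sites could therefore gain, and shares among the sites that could gain were not computed. LXRA-alone sites were chosen to lack PPARG peaks from cells given rosiglitazone, whereas most of the background sites have one. The low share of gains with rosiglitazone is therefore not independent of the choice of sites. LXRA/LXRB sites had 2.07% and 2.15% gained with rosiglitazone and LXRA/PPARG sites 10.3% and 10.1%. Of the 27 sites that gained H3K27ac with GW3965 at 24 h, 24 were called gained again at 48 h (88.9% of the 24 h sites and 21.2% of the 48 h sites). For rosiglitazone 28 sites were called at both times (53.8% and 62.2%). This overlap between times is given for LXRA-alone sites only, so it is not read as particular to them. The drugs and times share the same DMSO libraries.

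RNAP2 was lost at 151 LXRA-alone sites with GW3965 at 48 h (10.0%, background 9.6%) and at 78 at 24 h (5.17%, background 4.49%). With rosiglitazone 73 sites lost it at 24 h (4.84%, background 2.33%) and 85 at 48 h (5.64%, background 3.32%). The shares lost with rosiglitazone at these times were 4.61% and 5.01% of LXRA/LXRB sites and 3.84% and 5.99% of LXRA/PPARG sites. Shared sites, most of the background, had 1.19% and 2.11%. Gains of RNAP2 were fewer, with 17 sites at 24 h (1.13%, background 0.636%) and 35 at 48 h (2.32%, background 1.05%) of GW3965, and 30 (1.99%, background 1.32%) and 11 (0.729%, background 0.687%) of rosiglitazone. After 48 h of GW3965, RNAP2 was gained at 3.66% of LXRA/LXRB sites, 0.813% of LXRA/PPARG sites and 0.417% of shared sites. The share of a class that can be lost or gained depends on how many of its sites had a peak with DMSO. For RNAP2 that was a mean of 95.3% of the shared sites and 41.3% of the LXRA-alone sites. Only a site without a DMSO peak can gain one, so few shared sites, which are most of the background, could gain RNAP2. The shares gained therefore do not rank the LXRA-alone sites against the background or the shared sites.

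**Figure D5:**
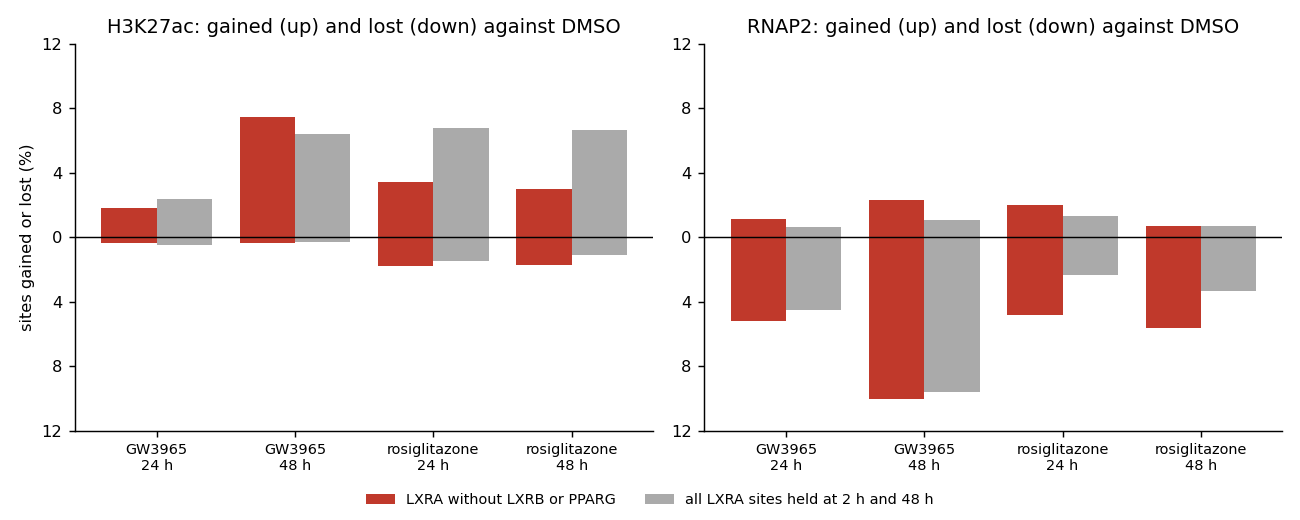
Share of sites (%) that gained (bars above 0) or lost (bars below 0) an H3K27ac (left) or RNAP2 (right) peak against DMSO, for the LXRA-alone sites and for all 11784 LXRA sites held at 2 h and 48 h. For H3K27ac the LXRA-alone bars are at 7.49% against 6.44% with GW3965 at 48 h, and at 3.45% and 2.98% against 6.79% and 6.65% with rosiglitazone.

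The 113 sites that gained H3K27ac with GW3965 at 48 h had a median LXRA percentile of 62.8, compared with 51.8 for the other 1395 LXRA-alone sites, and 10 of them (8.85%) had a JunD peak in at least 1 library, compared with 12.1%. A total of 59 (52.2%) had no H3K27ac peak in any rosiglitazone library, compared with 56.6% of the other 1395, and 13 (11.5%) had one in all 4, compared with 27.3%. RNAP2 was at a mean of 42.3% of the other sites with DMSO. At the 113 sites it was at 29.2% with DMSO, 38.1% and 29.2% with GW3965 at 24 and 48 h and 26.99% and 24.3% with rosiglitazone at these times. Their H3K27ac at 48 h of GW3965 and with DMSO chose them and is not counted as support. The other 1395 sites include those with H3K27ac under DMSO. The differences from them in H3K27ac with rosiglitazone and in RNAP2 are thus not independent of that choice either.

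Single sites show the range of patterns. The 5 sites with the highest lowest-percentile of LXRA over the 4 libraries were mostly poor in marks. The first, chr5:82593360-82594491, had LXRA scores of 3100 and 2632 at 2 h and 1591 and 2773 at 48 h, no JunD, and H3K27ac in 1 library, replicate 2 of GW3965 at 48 h (score 114). RNAP2 was called there in the 4 GW3965 libraries, with scores of 308, 132, 156 and 146, and in no DMSO or rosiglitazone library. The nearest LXRB and PPARG peaks were 31592 and 31537 bp away. Site chrX:45154385-45155488 had LXRA scores of 2691, 1574, 1392 and 1985 and no H3K27ac in any library. Its RNAP2 scores were 187, 143, 239 and 196 with GW3965, compared with 101 in 1 DMSO library and 135 in 1 rosiglitazone library. Site chr17:8198299-8199370 was the exception, with H3K27ac in 8 libraries and RNAP2 in all 10, whose scores were 428 and 547 with GW3965 at 48 h, 185 and 186 with DMSO and between 194 and 311 in the rest apart from 191 in replicate 2 of GW3965 at 24 h. Site chrX:22136048-22137136 had JunD in both libraries (106 and 109), no RNAP2 and H3K27ac in 1 library.

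Among the sites that gained H3K27ac with GW3965 at 48 h, the strongest bound was chr2:227379493-227380804, which is also second among all LXRA-alone sites. Its LXRA scores were 1832 and 1420 at 2 h and 1712 and 2970 at 48 h, and its H3K27ac scores were 255 and 437 at 48 h of GW3965 and 231 in replicate 2 at 24 h, with no peak in any DMSO or rosiglitazone library. The next was chr1:174934794-174935867, with H3K27ac scores of 522 in replicate 2 at 24 h and 232 and 374 at 48 h of GW3965. The third, chr11:120150234-120152243, had 495 in replicate 2 at 24 h and 544 and 289 at 48 h. All 3 showed the same 3 libraries with a peak, replicate 2 at 24 h and both at 48 h, and none had JunD.

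Sites without any mark reached high LXRA scores too. At chr6:52454710-52455719 LXRA scored 1644 and 1076 at 2 h and 1146 and 1264 at 48 h without a JunD, H3K27ac or RNAP2 peak in any library. The same was true of chr10:73456304-73457030, with 983, 998, 832 and 1242, and of chrX:87815522-87816387, with 1125, 686, 722 and 920, whose nearest PPARG peak was 918303 bp away.

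The 3 highest ranked LXRA-alone sites with JunD in both libraries and both other marks throughout had lowest LXRA percentiles between 63.0 and 72.5. For the 3 sites without any mark these were between 89.6 and 94.9. The former were drawn from 23 sites and the latter from 363, and LXRA scores of the 23 as a set were not summarised. The highest ranked was chr2:169041805-169042988, with LXRA scores of 1010, 497, 351 and 705 and JunD scores of 202 and 118. Its H3K27ac scores were 247 and 262 with DMSO, 249 and 2431 with GW3965 at 24 h, 415 and 2111 at 48 h, 3100 in both rosiglitazone libraries at 24 h and 2663 and 2990 at 48 h. This site lay 1818 bp from a PPARG peak and 1459 bp from an LXRB peak. The replicates of GW3965 differed widely there, with replicate 2 near the rosiglitazone libraries and replicate 1 near DMSO at 24 h. At chr9:14212476-14213705 H3K27ac scores were 370 and 384 with DMSO, 358 and 291 with GW3965 at 24 h, 654 and 638 at 48 h, 734 and 641 after 24 h of rosiglitazone and 1664 and 1285 after 48 h of it. At chr12:120972536-120973418 they ran from 545 to 2333 with no order by treatment.

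The 3 highest ranked of the 5 sites that lost H3K27ac with GW3965 at 48 h had weak peaks to begin with. At chr5:107205130-107206028 H3K27ac scored 103 and 170 with DMSO and RNAP2 228 and 232, neither had a peak in any GW3965 library, and JunD scored 159 and 262. At chr14:68931099-68932030, 287 bp from a PPARG peak, H3K27ac scored 140 and 109 with DMSO. At chr2:74453581-74454347 it scored 112 and 102 with DMSO and had no peak in any treated library, whereas RNAP2 was called in all 10 libraries and JunD scored 2857 and 3230. Binding motifs, sequences and the genes near these sites were not analysed here.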

How the data were processed

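ChIP-seq peak lists of 34 libraries from HT29 cells and RNA-seq counts of 8 DMSO libraries were used. Per the labels, reads were aligned with Bowtie to hg19 and peaks were called with MACS, without versions. Peak lists are per replicate, and the authors deposited 1 score per peak, taken here as minus 10 times the log10 of its p by the convention of MACS. For RNA-seq the authors deposited whole-number counts per gene without normalization, with TopHat and Cufflinks named in the submitters' processing notes. CPM here is a gene's count per 1000000 counts of its library.

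Peaks were joined in Python 3.11.15 with pandas 2.3.3 and numpy 2.4.6, at an overlap of at least 1 bp, and a site was marked when any peak of a library overlapped it. A site's score in a library was that of its highest peak. Shares were compared over libraries with exact two-sided permutation tests in scipy 1.17.1, at 0.05, with Benjamini-Hochberg adjustment over 10 tests of treatment, 6 of class and 6 of agonist by class. Plots were drawn with matplotlib 3.10.9. Overlap functions and tests were checked on simulated data. Alternatives covered the overlap, the score limits, the exclusion rule, a fixed window, equal peak numbers, equal covered length, score groups, single libraries left out and a replicate block.

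The set of sites and the comparisons were chosen with earlier results of these data known. Sites named in the text were those ranked highest by the lowest LXRA percentile over the 4 libraries: 5 over all LXRA-alone sites, 3 with JunD in both and the other marks in all libraries, 3 with no mark, 3 gained and 3 lost for H3K27ac with GW3965 at 48 h, besides the sites nearest to the limits of the definition. Scores and widths of LXRA were used by the definition and were not tested. Motifs and neighbouring genes were not analysed here, since no sequence or gene coordinates of hg19 were used. Input and H3K36me3 libraries and the other RNA-seq libraries were not used here.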

Additional observations from a re-analysis of the deposited data

Results flagged for a closer look

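The agonists differed in 3 contrasts at an unadjusted exact permutation p of 0.0286, the smallest that 4 libraries against 4 allow, and each had an adjusted p of 0.0571 over 6 tests. For H3K27ac, the share of LXRA-alone sites relative to LXRA/PPARG sites was 11.9 points higher with GW3965 than with rosiglitazone, and relative to shared sites it was 12.7 points higher. For RNAP2 the contrast with LXRA/PPARG sites was 15.1 points. In all 3 the libraries of the agonists did not overlap. The LXRA/PPARG and shared classes were set by PPARG peaks from cells given rosiglitazone, which LXRA-alone sites lack by definition. These contrasts are therefore not independent of how the sites were chosen. LXRA/LXRB sites also lack PPARG peaks. Against them the contrast was -1.54 points for H3K27ac and -3.76 for RNAP2 (exact permutation p = 0.571 and 0.2). The ChIP-seq groups have too few libraries to examine single ones for outlying values. In the RNA-seq groups given DMSO, with 4 libraries each, 29 sets of marker, receptor or depth values were examined with Dixon's gap ratio, of which chance places about 1 in 20 past the limit, and 2 were past it. At 24 h, EPCAM stood at 378 CPM in 1 library and between 338 and 341 in the other 3, and PTPRC at 0.0252 CPM in 1 library and at 0 in the other 3. With 3 values of 0 the gap ratio is 1 whatever the remaining value is, so the PTPRC flag rests on counts at the floor.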

How the results depend on the processing

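Of 414 alternative values for 43 results, 356 kept their direction and their side of the threshold or moved little. The 6 differences in H3K27ac and RNAP2 between LXRA-alone sites and the other classes were among them under every alternative that was run. Several alternatives, among them equal covered length, were chosen after seeing the data, and the cause of a change was not tested. With LXRA scores of at least 200, 409 sites remained in the set, JunD was at 6.36%, the H3K27ac difference of GW3965 from rosiglitazone became 12.2 points (exact p = 0.0286), RNAP2 differed from DMSO by 1.34 points at 24 h and -2.57 at 48 h of GW3965, and the RNAP2 contrast of agonists against LXRA/PPARG sites was 10.8. With exclusion only by LXRB or PPARG sites found in both replicates the set held 3415 sites, and the JunD share minus that of LXRA/LXRB sites was -23.9 points. JunD scores of at least 200 gave 2.85%. With equal peak numbers, H3K27ac differed from DMSO by -1.62 points after 48 h of rosiglitazone, RNAP2 by 1.23 and -7.19 points at 24 h and 48 h of GW3965, and the RNAP2 contrast against LXRA/PPARG sites was 12.8. Losses of H3K27ac then numbered 9 and 12 with GW3965 and 48 and 46 with rosiglitazone at 24 h and 48 h, gains 26 with rosiglitazone at 48 h, gains of RNAP2 31 with GW3965 and 19 with rosiglitazone at 24 h, and losses 36 with GW3965 at 24 h. With equal covered length, H3K27ac differed from DMSO by 3.48 points (GW3965, 48 h), -6.50 and -3.91 (rosiglitazone, 24 h and 48 h) and RNAP2 by 8.26 and 7.13 (GW3965, 24 h and 48 h). The agonists then differed by 7.06 points for H3K27ac and 13.4 for RNAP2 (both exact permutation p = 0.0286, unadjusted). With all peaks these differences were 8.17 and 0.398 points (exact permutation p = 0.0857 and 0.914). The RNAP2 contrast against LXRA/PPARG sites was 4.91 at equal covered length. From the lowest to the highest LXRA score group, JunD differed by -14.9, -14.6, -14.0 and -6.65 points from LXRA/LXRB sites and by -35.2, -48.9, -57.4 and -67.9 from shared sites, and by -16.2, -27.1 and -11.5 from LXRA/PPARG sites in the first, the third and the highest group. Agonist contrasts that changed in a score group were -2.64 for the RNAP2 share (lowest group), 1.16, 0.0924 and 3.81 for H3K27ac against LXRA/LXRB sites (the lower 3 groups), 0.736 and 0.966 for RNAP2 against them (lowest and the third), 12.5 and -0.802 for RNAP2 against LXRA/PPARG sites (the third and highest) and 8.79 for H3K27ac against LXRA/PPARG sites (highest).

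With single libraries left out, the set held from 1589 to 2641 sites, the most without replicate 1 of LXRA at 48 h and 2325 without replicate 2 at 2 h. Leaving out an LXRA library also lifted the need for a peak in both replicates at that time. The H3K27ac difference from DMSO ran from -0.995 to 5.64 points (rosiglitazone, 24 h) and from -1.66 to 4.97 (48 h), the agonist contrast of H3K27ac against LXRA/LXRB sites from -2.95 to 0.0753, the RNAP2 difference between agonists from -3.72 to 3.09, and that of GW3965 at 24 h from DMSO from -17.2 to 3.22, which was positive without replicate 2 of GW3965. As a replicate block, differences taken within replicate numbers were 18.5 and 8.42 points for H3K27ac at 48 h of GW3965 and 4.71 and -18.7 for RNAP2 at 24 h, and the H3K27ac difference between agonists, 8.17 points, had an exact sign p of 0.125, the smallest possible. Libraries of the same number deviated from their group means in different directions (replicate 1 of H3K27ac, averaged over the 4 classes, by -3.66 points with DMSO and 0.888 or -0.870 in other groups), so the numbers are not taken as pairs. Alternatives for motif windows and for genes near the sites were not run.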

Other observations

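LXRA-alone sites made up 12.8% of all sites held at both times, and by chromosome the share ran from 10.7% on chromosome 19 (40 of 375 sites) to 19.7% on chromosome 22 (28 of 142) and 18.4% on the X chromosome (45 of 245). The nearest JunD peak lay at a median distance of 31205 bp from LXRA-alone sites, 16312.5 bp from LXRA/LXRB sites and 7039 bp from LXRA/PPARG sites. These values are descriptive and were not tested.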
